A study of Homo sapiens with 8 samples.

Results

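The miR-106b-25 cluster is a set of 3 miRNA hairpins, miR-106b, miR-93 and miR-25, that lie together in 1 intron of MCM7, a gene for a subunit of the helicase that opens DNA for replication. Its members were taken by locus and name: both arms of each hairpin, 6 of the 594 mature miRNAs measured, and all 6 were in the table and passed the filter on low values. They were measured by small-RNA sequencing of H1 hESCs, an established line of human embryonic stem cells. The 4 groups of 2 libraries each were Dicer-S1344L homozygous cells, Dicer-S1344L hemizygous cells, Dicer-null cells and wild-type cells. The S1344L lines were engineered with CRISPR-Cas9 in H1, and the cells carry no other stated allele or treatment. The labels do not give the number of clones behind a line, and they call the RNA samples biologically independent. The sample descriptions code the homozygous libraries as pmpm, the hemizygous ones as pmfs and the Dicer-null ones as fsfs, so the hemizygous code joins a part of each of the other codes; the letters are not explained.

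Dicer is the RNase III enzyme that cuts a precursor hairpin into a short duplex of a 5p and a 3p arm. Its RNase IIIa domain cuts the 3p strand and its RNase IIIb domain cuts the 5p strand, and S1344 lies in the RNase IIIa domain, where its substitution recurs in tumours. 1 arm of the duplex is usually kept by an Argonaute protein as the guide, which recognises targets mainly through its seed, bases 2 to 8, and the other arm is usually degraded. The cluster is a paralog of miR-17-92, and its guides are known for repressing inhibitors of the cell cycle and of apoptosis, such as CDKN1A for miR-106b and miR-93 and BCL2L11 for miR-25.

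The mature sequences show which arms share a seed and which do not. They are given 5′ to 3′ from RefSeq (GRCh38.p14), with the seed in capitals.
miR-106b-5p: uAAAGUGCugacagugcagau
miR-93-5p: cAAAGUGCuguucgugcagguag
miR-25-3p: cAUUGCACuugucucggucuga
miR-106b-3p: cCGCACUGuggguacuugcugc
miR-93-3p: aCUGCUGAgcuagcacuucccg
miR-25-5p: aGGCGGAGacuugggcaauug
The first 3 are the arms with more reads in wild-type cells. miR-106b-5p and miR-93-5p share the seed AAAGUGC, miR-25-3p has another, and the seeds of the other 3 arms were found in no other entry among the 533 table names that matched a RefSeq mature sequence. No other sequence of the table lay within 2 edits of any of the 6, and the closest pair was miR-93-5p with miR-17-5p or miR-20b-5p at 3 edits.

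In the hg38 build with the GENCODE 29 annotation, MCM7 lies on chromosome 7, minus strand, at chr7:100092728-100101940. MIR106B is at chr7:100093993-100094074, MIR93 at chr7:100093768-100093847 and MIR25 at chr7:100093560-100093643. All 3 fall in intron 13 of the 15-exon transcript MCM7-201, at chr7:100093402-100094172, a stretch of 771 bases. Of the hairpins, the RefSeq sequences of miR-106b and miR-25 are shown with both arms in capitals, to show on which side of the loop each arm lies.
miR-106b hairpin: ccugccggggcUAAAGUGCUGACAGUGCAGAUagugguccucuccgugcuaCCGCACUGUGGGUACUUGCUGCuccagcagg
miR-25 hairpin: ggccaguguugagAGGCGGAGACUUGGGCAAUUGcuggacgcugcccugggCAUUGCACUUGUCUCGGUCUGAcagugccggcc
The loop between the annotated arms is 19 bases in miR-106b, 16 in miR-93 and 17 in miR-25. Thus 2 of the hairpins carry their major wild-type arm on the 5p side, and miR-25 carries it on the 3p side.

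Values are RPM, reads divided by a denominator that the authors set for each library, as recovered from the deposited log2 values. The libraries held between 137655 and 2725756 miRNA reads, and miRNA reads came to 0.118 to 2.43 times the denominator. Hemizygous replicate 1 stood apart at 0.729, against 2.42 in hemizygous replicate 2, with 1000101 miRNA reads over one of the larger denominators. Results that depend on the denominators are also given under 3 other scalings: to the library's own miRNA reads, by the median of ratios, and to the upper quartile. A read was worth 0.715 to 1.33 RPM. The Dicer-null libraries were the shallowest, with 165317 and 137655 miRNA reads. As a check of the cell type, 8 of 8 miRNAs listed for pluripotent stem cells were measured and held 38.1% to 52.3% of the miRNA reads of a library. The lists for fibroblasts, nerve, blood and muscle, with 3 of 5, 3 of 3, 3 of 4 and 2 of 3 measured, held at most 1.66%, and miR-122-5p of liver is not analysed here. Single members of these lists were still abundant. In wild-type libraries miR-21-5p of the fibroblast list had 19385 and 27299 RPM, and miR-124-3p of the nerve list had 14849 and 13011 RPM. In bulk samples, fewer cells of a type and less RNA per cell cannot be told apart.

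In wild-type cells 3 of the 6 arms were abundant. miR-106b-5p ranked 18 of 594 by mean RPM, miR-93-5p 19 and miR-25-3p 25, while miR-106b-3p ranked 145, miR-93-3p 187 and miR-25-5p 345. In S1344L homozygous cells miR-25-3p ranked 20 and miR-93-3p 37, and miR-93-5p and miR-106b-5p ranked 101 and 128. The plot of RPM by library shows the 6 arms side by side.

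**Figure D1:**
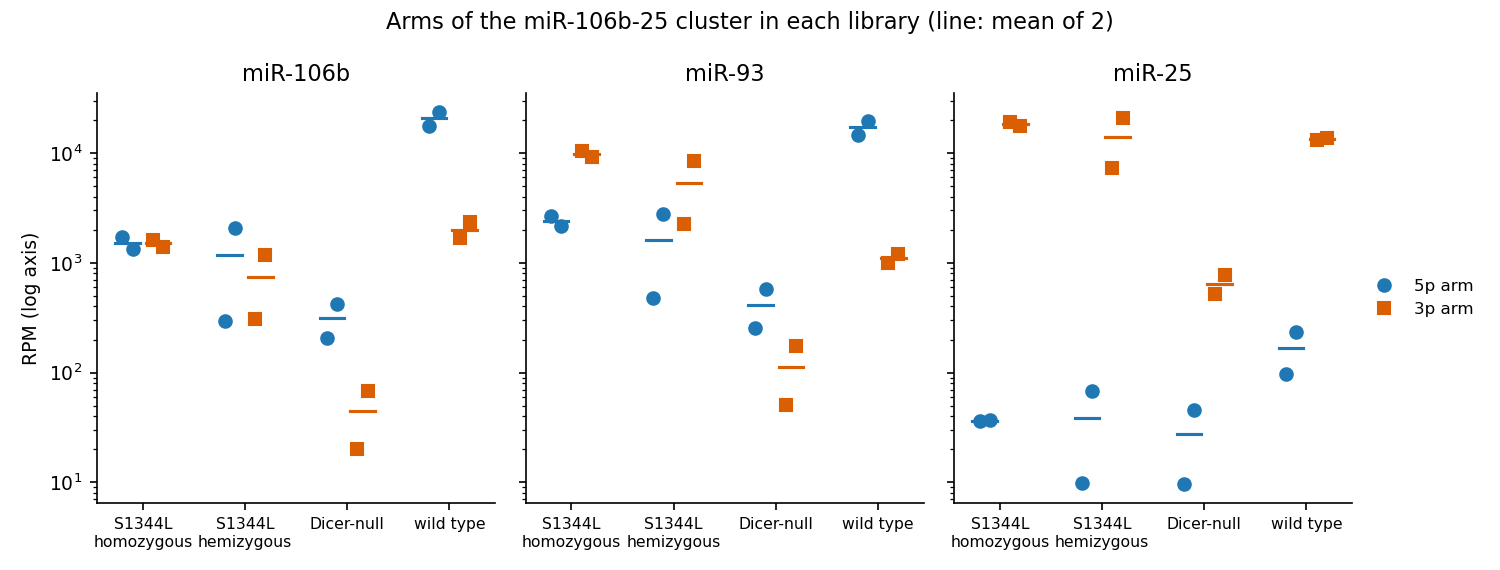
RPM of the 5p arm (circles) and 3p arm (squares) of each hairpin in every library on a log axis, with a line at the mean of the 2 libraries of a group. In wild-type cells the 5p arm lies above the 3p arm for miR-106b and miR-93, in S1344L homozygous cells the arms of miR-106b meet between 1339 and 1714 RPM and those of miR-93 have changed places, and miR-25-3p lies above miR-25-5p in every library.

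miR-106b-5p, the guide of its hairpin in wild-type cells, had 1714 and 1339 RPM in homozygous libraries, 296 and 2059 RPM in hemizygous libraries and 205 and 424 RPM in Dicer-null libraries, against 17764 and 23555 RPM in wild-type libraries. The wild-type libraries lie above every library of the other groups, and hemizygous replicate 1 is the low one of its pair. It fell in homozygous against wild-type cells (log2 fold change -3.75 ± 0.87 SE, adjusted p = 0.000262) and in hemizygous against wild-type cells (-4.71 ± 0.87, adjusted p = 2.04e-06), by limma with Benjamini-Hochberg adjustment over all 594 miRNAs. The first of these calls was lost without homozygous replicate 2 (-3.58) and without wild-type replicate 2 (-3.55).

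Its partner miR-106b-3p had 1617 and 1387 RPM in homozygous libraries, 310 and 1172 RPM in hemizygous libraries and 20.4 and 68.5 RPM in Dicer-null libraries, against 1682 and 2335 RPM in wild-type libraries. The homozygous libraries lie just under the wild-type ones, and the Dicer-null libraries lie far below all others. Neither S1344L genotype differed from wild type past the threshold, at -0.40 ± 0.92 (adjusted p = 0.805) in homozygous cells and -1.72 ± 0.92 (adjusted p = 0.143) in hemizygous cells. Without hemizygous replicate 2 the hemizygous difference was -2.67 and passed. Scaled to own miRNA reads, the hemizygous difference was -0.98 ± 0.36 and passed (adjusted p = 0.0475). Under upper-quartile scaling both differences turned positive, to 0.50 and 0.11, and under median-ratio scaling the homozygous one was 0.0089, none of them past the threshold.

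miR-93-5p, with the same seed as miR-106b-5p, had 2689 and 2163 RPM in homozygous libraries, 476 and 2774 RPM in hemizygous libraries and 253 and 576 RPM in Dicer-null libraries, against 14663 and 19669 RPM in wild-type libraries. As for miR-106b-5p, both wild-type libraries stand above all the others. It fell in homozygous cells (log2 fold change -2.82 ± 0.86, limma adjusted p = 0.0058) and in hemizygous cells (-3.88 ± 0.86, adjusted p = 6.58e-05). The homozygous call was lost when any of the 4 libraries compared was left out, with values between -3.03 and -2.60.

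miR-93-3p, the minor strand of the hairpin in wild-type cells, went the other way. It had 10356 and 9193 RPM in homozygous libraries, 2262 and 8472 RPM in hemizygous libraries and 51.1 and 174 RPM in Dicer-null libraries, against 996 and 1197 RPM in wild-type libraries. Every S1344L library lies above both wild-type libraries, and both Dicer-null libraries lie below them. It rose in homozygous cells (3.16 ± 0.88, limma adjusted p = 0.00227), a fold of 8.93, and ranked 26 from the highest among 300 3p arms. In hemizygous cells the difference was 2.00 ± 0.88 and missed the threshold (adjusted p = 0.0605). It passed under all 3 other scalings, with 2.73 on own miRNA reads (adjusted p = 0.000202), 3.32 by median ratio (2.35e-05) and 3.83 by upper quartile (2.67e-05). Without hemizygous replicate 1, the library with few miRNA reads for its denominator, it was 2.95 and passed. The homozygous call was lost without any one of its 4 libraries, with values between 3.03 and 3.29 and the highest adjusted p at 0.106.

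miR-25-3p, the guide of miR-25, had 18979 and 17423 RPM in homozygous libraries, 7244 and 20984 RPM in hemizygous libraries and 518 and 769 RPM in Dicer-null libraries, against 13163 and 13638 RPM in wild-type libraries. The homozygous libraries lie above the wild-type ones, the hemizygous pair spans them, and the Dicer-null libraries lie lowest. As deposited, neither S1344L genotype passed the test against wild type, with 0.44 ± 0.81 in homozygous cells (limma adjusted p = 0.756; 95% interval -1.15 to 2.04) and -0.12 ± 0.81 in hemizygous cells (adjusted p = 0.936; -1.71 to 1.47). Under other settings it passed as higher. In hemizygous cells it was 0.61 on own miRNA reads (adjusted p = 0.00772), 1.20 by median ratio (0.0016) and 1.71 by upper quartile (0.000275), and it was positive at 0.65 without hemizygous replicate 1 but did not pass (0.194). In homozygous cells it passed by median ratio at 0.85 (adjusted p = 0.00919), by upper quartile at 1.35 (0.000877) and, at the same 0.44, with only the 4 libraries compared (0.0321).

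miR-25-5p was the scarcest member, with 34 and 30 reads in homozygous libraries, 13 and 51 in hemizygous, 13 and 34 in Dicer-null and 125 and 275 in wild-type libraries. In RPM these are 36.5 and 36.7, 9.84 and 68.1, 9.65 and 45.9, and 97.7 and 236 in the same order of groups. Both wild-type libraries lie above all others. It fell in hemizygous cells (-2.48 ± 1.00, limma adjusted p = 0.0389), and the call was lost without any 1 of the 8 libraries except hemizygous replicate 2, with values between -3.11 and -1.15. The call was also lost under all 3 other scalings, at -1.77 on own miRNA reads (adjusted p = 0.0505), -1.20 by median ratio (0.0956) and -0.70 by upper quartile (0.298). It was lost on the deposited log2 values (-2.55, adjusted p = 0.0532), with only the 4 libraries compared (0.21) and with array weights (0.24). In homozygous cells its difference was -2.02 ± 1.00 (adjusted p = 0.112), which passed when either hemizygous library was left out of the shared estimate of the spread. It also passed on own miRNA reads (-2.05, adjusted p = 0.0279), by median ratio (-1.58, 0.0386), with only the 4 libraries compared (0.00304) and with array weights (2.71e-05).

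Counted together on the deposited scale, 2 of 3 5p arms fell and 1 of 3 3p arms rose in homozygous against wild-type cells, where 22.2% of all 594 miRNAs fell and 9.93% rose. The 2 groups did not overlap in RPM for 6 of 6 arms, and for 81.5% of all miRNAs. In hemizygous cells 3 of 3 5p arms fell and 0 of 3 3p arms rose or fell, although 1 of the 3p arms had an unadjusted p under 0.05. The background there was 30.6% lower and 4.04% higher, and the groups did not overlap for 5 of 6 arms and for 53.0% of all miRNAs. These counts moved with the scaling. In hemizygous cells 2 of 3 5p arms fell under each of the 3 others. Of the 3p arms, 2 rose and 1 fell on own miRNA reads, where 18.2% of all miRNAs rose and 34.4% fell, and 2 rose and 0 fell by median ratio, where 31.9% rose, and by upper quartile, where 43.0% rose. In homozygous cells 3 of 3 5p arms fell and 1 of 3 3p arms rose on own miRNA reads, against 19.1% of all miRNAs that rose and 33.7% that fell. By median ratio 3 of 3 5p arms fell and 2 of 3 3p arms rose (31.0% of all rose), and by upper quartile 2 of 3 and 2 of 3 (42.8% rose). The same direction held for arms at large: the median log2 fold change in homozygous cells was -2.25 over 227 5p arms, of which 111 fell, and 0.68 over 300 3p arms, of which 56 rose. In hemizygous cells these medians were -2.93 and -0.18. By arm side, 48.9% of all 5p arms fell in homozygous and 60.8% in hemizygous cells, so the cluster's 5p arms moved as many others did, and the plot of fold changes shows them beside these medians. Both S1344L genotypes were set against the same wild-type libraries. Of all miRNAs, the median difference was -0.04 in homozygous and -0.89 in hemizygous cells as deposited, and 0.83 and 0.84 under upper-quartile scaling, where 254 rose and 150 fell in homozygous cells against 59 and 132 as deposited.

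**Figure D2:**
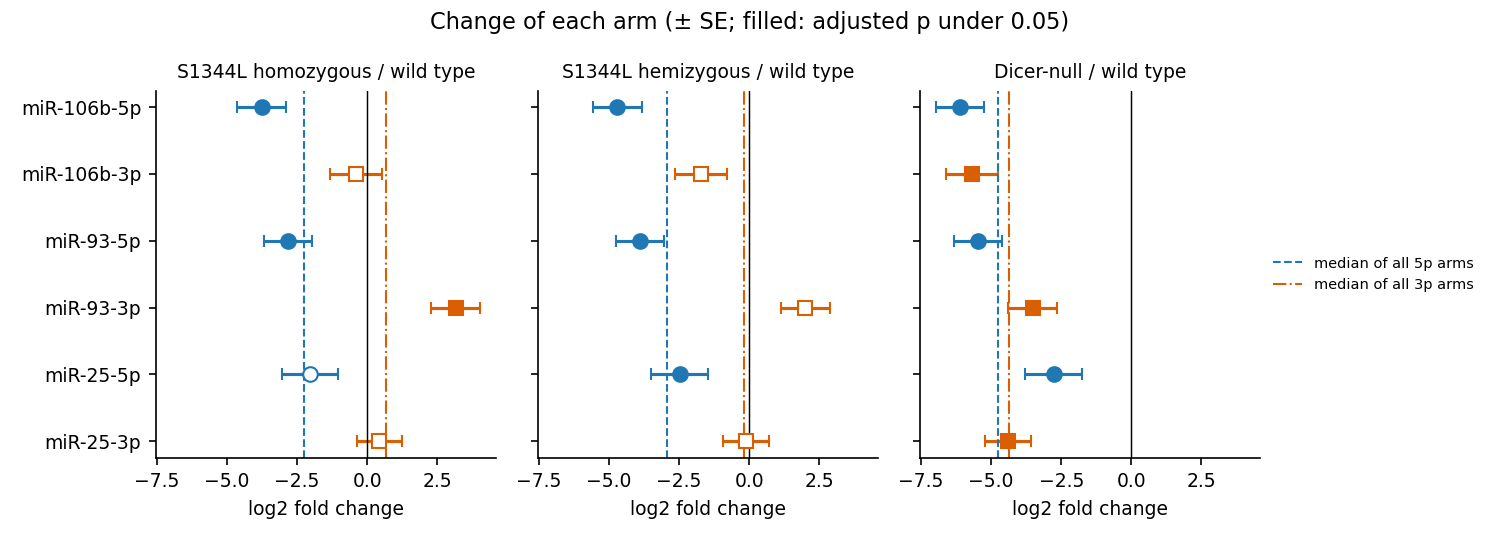
Log2 fold change against wild type with its standard error for the 6 arms in homozygous, hemizygous and Dicer-null cells, with filled symbols where the adjusted p is under 0.05 and vertical lines at the medians of all 5p and all 3p arms. miR-106b-5p and miR-93-5p lie left of 0 in all 3 panels, and miR-93-3p lies right of 0 in both S1344L genotypes, at 3.16 and 2.00, and left of it in Dicer-null cells, at -3.52 as deposited (right of 0 under the other 3 scalings).

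Dividing the 3p by the 5p arm of a hairpin removes the scaling of a library, apart from the pseudocount of 1 RPM. All 3 hairpins moved toward the 3p arm in homozygous cells, where 79.0% of 186 hairpins with both arms did, and all 3 did so in hemizygous cells, where 77.4% did. For miR-93 the log2 ratio of 3p to 5p was 1.95 and 2.09 in homozygous libraries, 2.25 and 1.61 in hemizygous libraries and -2.29 and -1.72 in Dicer-null libraries, against -3.88 and -4.04 in wild-type libraries. The sign is positive in every S1344L library and negative in every other, so the more abundant arm of miR-93 is 3p in S1344L cells and 5p in wild-type cells. The change was 5.97 ± 0.45 in homozygous cells, rank 21 of 186 toward 3p, and 5.89 ± 0.45 in hemizygous cells, rank 20, against medians of 3.29 and 2.87 over all hairpins.

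For miR-106b the log2 ratio was -0.08 and 0.05 in homozygous libraries, 0.07 and -0.81 in hemizygous libraries and -3.27 and -2.61 in Dicer-null libraries, against -3.40 and -3.33 in wild-type libraries. The arms came out near parity in 3 of the 4 S1344L libraries, with hemizygous replicate 2 still on the 5p side. The change, 3.35 ± 0.50 in homozygous cells (limma adjusted p over hairpins = 2.2e-05) and 2.99 ± 0.50 in hemizygous cells, was close to the median hairpin. For miR-25, already on the 3p side, the ratio was 8.98 and 8.85 in homozygous libraries, 9.38 and 8.25 in hemizygous libraries and 5.61 and 4.04 in Dicer-null libraries, against 7.06 and 5.85 in wild-type libraries. Its changes of 2.46 ± 0.84 and 2.36 ± 0.84 passed (adjusted p = 0.0136 and 0.0175) but rest on few 5p reads. The homozygous one was lost without either homozygous library (2.40 and 2.53) or wild-type replicate 2 (1.86), and the hemizygous one without hemizygous replicate 1 (1.79) or wild-type replicate 2 (1.76).

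**Figure D3:**
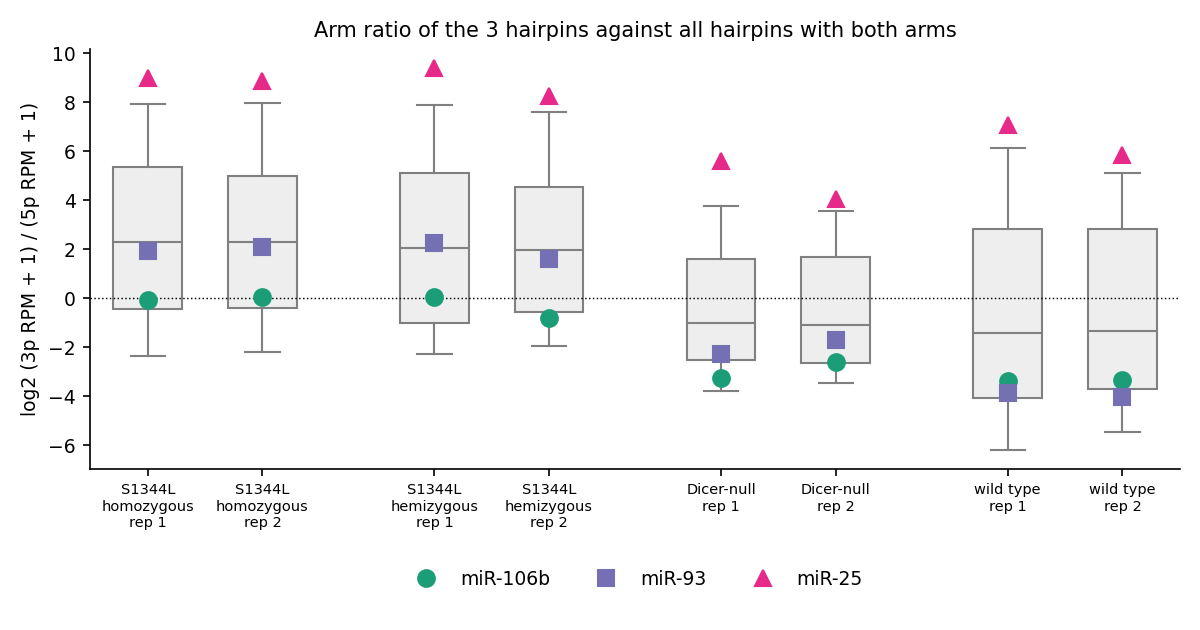
Log2 ratio of 3p to 5p RPM, each with 1 RPM added, for miR-106b (circles), miR-93 (squares) and miR-25 (triangles) in every library. Grey boxes span the quartiles of 186 hairpins with the median as a line and whiskers at the 10th and 90th percentiles. miR-93 lies above 0 in the 4 S1344L libraries and below 0 in the other 4, miR-106b lies near 0 in 3 of the 4 S1344L libraries and at -0.81 in hemizygous replicate 2, and miR-25 lies above the upper whisker throughout.

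In Dicer-null against wild-type cells, 6 of 6 arms fell as deposited, where 87.2% of all miRNAs fell and the groups did not overlap for 92.8%. The log2 differences were -6.11 for miR-106b-5p, -5.69 for miR-106b-3p, -5.47 for miR-93-5p, -3.52 for miR-93-3p, -2.77 for miR-25-5p and -4.41 for miR-25-3p. These levels depended on the denominators: scaling to the library's own miRNA reads turned miR-93-3p and miR-25-5p positive (0.37 and 1.05), upper-quartile scaling also miR-25-3p (0.60), and the median of all miRNAs was -4.49 as deposited and -0.84, -0.23 and 0.23 under the 3 other scalings. On own miRNA reads 2 of 3 5p arms and 2 of 3 3p arms were still called lower, where 44.7% of all miRNAs were. By median ratio 2 of 3 5p arms and 1 of 3 3p arms were lower (27.8% of all). By upper quartile 1 of 3 5p arms and 0 of 3 3p arms were lower (15.9% of all). By median ratio and by upper quartile 2 of the 6 arms, miR-93-3p and miR-25-5p, were called higher, where 20.7% and 28.3% of all miRNAs were. Without Dicer-null replicate 1 (-1.70) or wild-type replicate 2 (-2.14) the call of miR-25-5p was lost. The arm ratios, which do not use the denominators, moved less than in S1344L cells. miR-93 moved toward 3p by 1.95 ± 0.45 (limma adjusted p = 0.00301), where 27.4% of hairpins did, and miR-106b (0.42 ± 0.50, adjusted p = 0.519) and miR-25 (-1.63 ± 0.84, adjusted p = 0.116) did not pass.

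The direct comparison of the S1344L genotypes with Dicer-null cells shows the same split by arm. In homozygous against Dicer-null cells 5 of 6 arms were higher, where 76.3% of all miRNAs were, with 5.28 for miR-106b-3p, 6.68 for miR-93-3p and 4.85 for miR-25-3p, and 2.36 for miR-106b-5p and 2.66 for miR-93-5p. In hemizygous against Dicer-null cells the 3p arms were higher in 3 of 3 cases, by 3.97, 5.52 and 4.29. There 63.8% of all miRNAs and 270 of 300 3p arms were higher. Of the 5p arms 0 of 3 passed (0 with an unadjusted p under 0.05), where 78 of 227 5p arms were higher. Scaled to own miRNA reads, miR-106b-3p was 0.83 and did not pass (adjusted p = 0.0709), which left 2 of 3 3p arms higher. In homozygous cells 289 of 300 3p arms and 121 of 227 5p arms were higher as deposited. On that scale the cluster's 3p arms thus moved as most 3p arms did. Under each of the 3 other scalings all 3 5p arms were lower, not higher, in both S1344L genotypes than in Dicer-null cells, miR-106b-5p by between -1.61 and -1.80. In these comparisons 30.9% to 32.7% of all miRNAs were lower. Left-out libraries also moved these counts: 3 arms were higher in homozygous cells without homozygous replicate 1 or Dicer-null replicate 1, miR-106b-5p alone was lost without homozygous replicate 2 (2.53), and 5 were higher in hemizygous cells without hemizygous replicate 1. All 3 hairpins were shifted toward 3p against Dicer-null cells in homozygous cells, by 2.93 for miR-106b, 4.02 for miR-93 and 4.10 for miR-25, where 78.0% of hairpins were. The shifts in hemizygous cells were 2.57, 3.93 and 3.99, where 78.5% of hairpins were.

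Between hemizygous and homozygous cells, 0 of 6 arms and 0 of 3 hairpin ratios passed in limma, where 0% of all miRNAs did, and 0 of the 6 arms had an unadjusted p under 0.05. The arm differences lay between -1.31 and -0.46 on the log2 scale, and the intervals were wide, for example -2.88 to 0.57 for miR-93-3p. Without hemizygous replicate 2, 5 of 6 arms were lower in the remaining hemizygous library, replicate 1, where 433 of all miRNAs then passed. The ratio differences were -0.36 ± 0.50 for miR-106b, -0.09 ± 0.45 for miR-93 and -0.10 ± 0.84 for miR-25.

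The 3 hairpins are thought to be cut out of 1 transcript, so their shares of the cluster's own reads give a view free of the scaling. 5p arms held 12.5% (95% Wilson interval 12.2 to 12.9) and 11.2% (10.8 to 11.6) of these reads in homozygous libraries. They held 7.37% (6.96 to 7.81) and 13.8% (13.4 to 14.2) in hemizygous libraries and 44.2% (41.7 to 46.8) and 50.8% (48.3 to 53.3) in Dicer-null libraries, against 67.2% (66.9 to 67.6) and 71.7% (71.3 to 72.0) in wild-type libraries. The groups with S1344L do not overlap the others. With 2 libraries against 2, an exact two-sided permutation test cannot go below p = 0.333, which it gave for each S1344L genotype against wild type. The intervals cover counting error only, as the labels name no molecular identifiers.

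By hairpin, miR-106b had a smaller share and miR-25 a larger share in S1344L cells. With both arms summed it held 9.02% ± 0.546 of the cluster's reads in homozygous cells, 7.40% ± 2.39 in hemizygous cells and 22.6% ± 1.85 in Dicer-null cells, against 41.5% ± 1.77 in wild-type cells (SD, n = 2 each). miR-93 held 36.4% ± 0.604, 28.7% ± 4.11 and 32.6% ± 5.44 in homozygous, hemizygous and Dicer-null cells, against 33.4% ± 1.44 in wild-type cells, so its share differed by less than 5 points while the arm behind it changed. miR-25 held 54.5% ± 1.15, 63.9% ± 6.50 and 44.8% ± 7.29 in those 3 groups, against 25.1% ± 3.21 in wild-type cells. Counting the major wild-type arm of each hairpin alone, the share of miR-93 was 22.5 points lower in homozygous cells, and with both arms it was 3.04 points higher.

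The whole cluster came to 33466 ± 2724 RPM in homozygous cells, 23064 ± 17628 RPM in hemizygous cells and 1557 ± 706 RPM in Dicer-null cells, against 54498 ± 8672 RPM in wild-type cells. Homozygous cells thus had 61.4% of the wild-type sum. By hairpin, the homozygous sum was 13.4% of the wild-type sum for miR-106b, 66.8% for miR-93 and 134% for miR-25. As a share of all miRNA reads the cluster held 1.46% and 1.45% in homozygous libraries, 1.45% and 1.47% in hemizygous libraries and 0.894% and 1.12% in Dicer-null libraries, against 2.32% and 2.60% in wild-type libraries. The 4 S1344L libraries lie between 1.45% and 1.47%, hemizygous replicate 1 included, and the exact permutation test again gave its smallest p, 0.333.

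**Figure D4:**
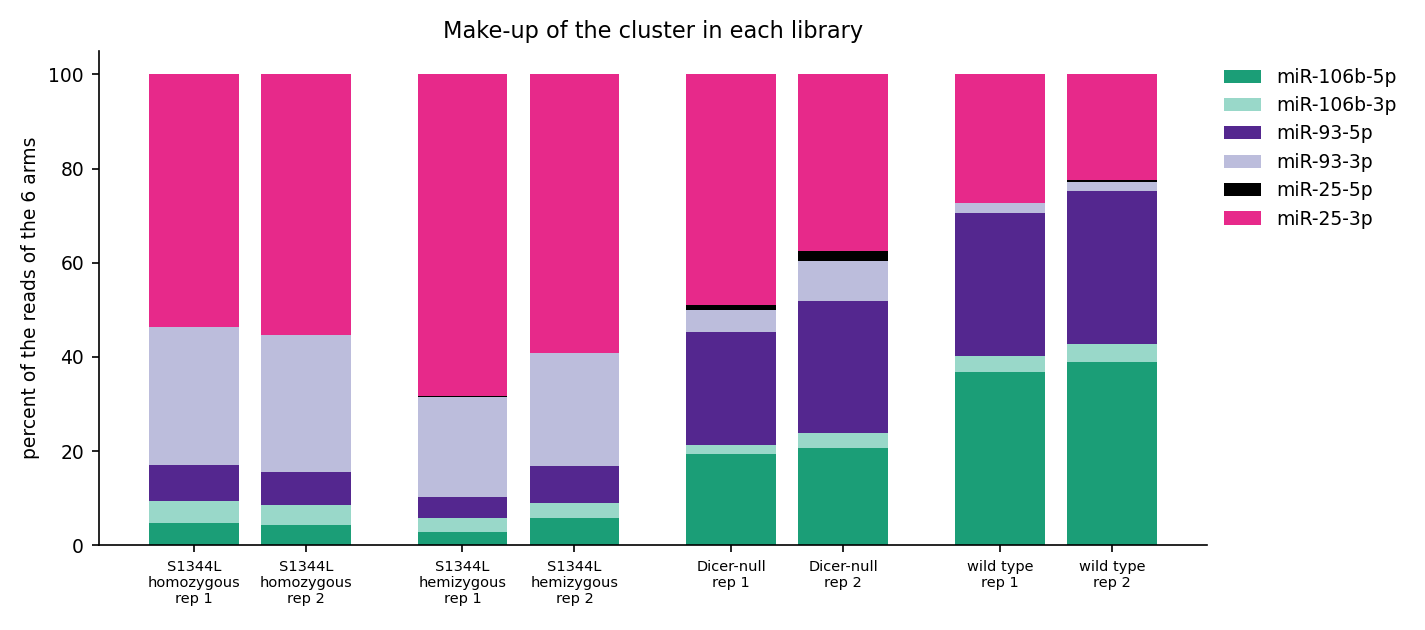
Percent of the reads of the 6 arms held by each arm in every library, stacked to 100. miR-106b-5p and miR-93-5p fill most of the wild-type bars, miR-25-3p and miR-93-3p fill most of the S1344L bars, and the Dicer-null bars lie between.

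The 3p arms of miR-106b and miR-93 parted although their 5p arms share a seed and fell together. The log2 difference of miR-106b-3p from miR-93-3p was -2.68 and -2.73 in homozygous libraries, -2.86 and -2.85 in hemizygous libraries and -1.29 and -1.33 in Dicer-null libraries, against 0.76 and 0.96 in wild-type libraries. That is a change of -3.56 in homozygous, -3.72 in hemizygous and -2.17 in Dicer-null cells, from which the scaling cancels apart from the pseudocount, with exact permutation p = 0.333, the smallest possible. The 5p arms differed by -0.94 in homozygous and -0.83 in hemizygous cells in their changes. Among 186 hairpins in homozygous cells, 19 (10.2%) had a 5p arm that fell and a 3p arm that rose, as miR-93 did, and 74 (39.8%) had a 5p arm that fell and a 3p arm that did not pass, as miR-106b did. Calls behind these classes are as deposited with all 8 libraries, and the classes under other settings are not given.

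The paralogous clusters miR-17-92 and miR-106a-363 give 4 further hairpins whose 5p arm carries the seed AAAGUGC, namely miR-17, miR-20a, miR-106a and miR-20b. Values for their 3p arms are given by a choice made after they were seen. All 6 5p arms with this seed fell in homozygous cells, with log2 fold changes between -3.75 and -2.60, where 48.9% of all 5p arms fell, and miR-106b-5p had the lowest of them. Of the 6 3p arms opposite, 5 rose in homozygous cells, by 2.42 to 3.78, where 18.7% of all 3p arms rose, and miR-106b-3p was the exception at -0.40. In hemizygous cells the other 5 had 1.67 to 3.0, of which 2 passed as deposited, where 8.0% of all 3p arms rose, and miR-106b-3p had -1.72. Of the 6 3p arms, miR-106a-3p, which rose by 2.87 in homozygous cells, had no sequence in the reference used and could not be compared. The sequences of the other 5 are set side by side, with the seed in capitals, to show how they differ.
miR-106b-3p: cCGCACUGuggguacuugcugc
miR-93-3p: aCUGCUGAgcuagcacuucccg
miR-17-3p: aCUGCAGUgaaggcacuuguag
miR-20a-3p: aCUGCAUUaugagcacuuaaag
miR-20b-3p: aCUGUAGUaugggcacuuccag
The seeds of 3 of the 5 shown begin with CUGC, and that of miR-106b-3p begins with CGCA. Of 269 3p arms of the table with a sequence, 6 (2.23%) begin with CUGC, and these 3 are among the 6. The start was picked after the arms were seen, so the share is no test. This describes the letters only. Taken over their full lists, 6 of 11 5p arms measured of the 2 paralogous clusters fell in homozygous cells, near the 48.9% of all 5p arms, and 5 of 10 3p arms rose, beside 18.7% of all 3p arms. In hemizygous cells 8 of 11 fell, beside 60.8% of all 5p arms, and 2 of 10 rose, beside 8.0% of all 3p arms. In Dicer-null cells as deposited 9 of 11 5p and 10 of 10 3p arms fell, beside 89.9% and 90.7% of all such arms.

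**Figure D5:**
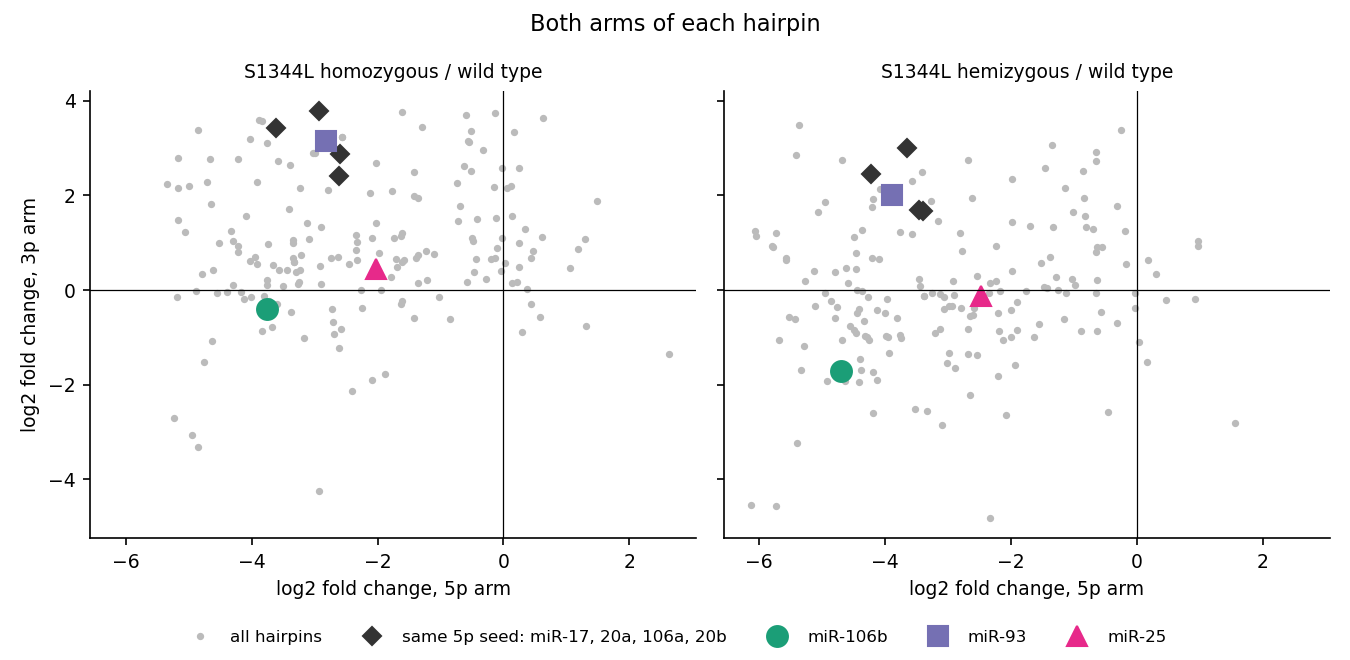
Log2 fold change of the 3p arm against that of the 5p arm of each of 186 hairpins in homozygous and hemizygous cells over wild type, with the 3 hairpins of the cluster and the 4 others that share the 5p seed of miR-106b and miR-93. miR-93 lies among those 4 at the upper left, and miR-106b lies apart from them, with its 3p arm at -0.40 and -1.72.

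The seed AAAGUGC is also found on 3p arms, miR-519d-3p and miR-526b-3p of the chromosome 19 cluster, which has near-identical copies, so their reads may be split by the counting. In homozygous cells miR-519d-3p differed by 0.14 ± 0.86 (limma adjusted p = 0.936) and miR-526b-3p by -1.08 ± 0.88 (adjusted p = 0.413), with neither past the threshold, beside 6 of 6 5p arms with this seed that fell. In hemizygous cells they differed by -0.86 ± 0.86 (adjusted p = 0.509) and -1.92 ± 0.88 (adjusted p = 0.0771), neither past the threshold, although the second had an unadjusted p under 0.05. The 3p arms held 27.0% and 30.6% of the reads with this seed in homozygous libraries, 27.0% and 26.5% in hemizygous libraries and 4.62% and 5.40% in Dicer-null libraries, against 6.14% and 6.41% in wild-type libraries. Summed over its 8 entries, the seed had 30477 ± 3386 RPM in homozygous cells, 21776 ± 19442 in hemizygous cells and 6590 ± 1921 in Dicer-null cells, against 172935 ± 22409 RPM in wild-type cells. That is 5.67-fold lower in homozygous cells, and 5.91-fold lower per miRNA read of the library. In Dicer-null cells it was 26.2-fold lower as deposited but 1.78-fold lower per miRNA read. Against Dicer-null cells, homozygous cells had 4.62 times the sum as deposited and were 3.32-fold lower per miRNA read. miR-106b-5p and miR-93-5p together made up 13.4% and 12.5% of the sum in homozygous libraries, 9.62% and 13.6% in hemizygous libraries and 8.76% and 12.6% in Dicer-null libraries, against 20.6% and 22.9% in wild-type libraries.

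The seed of miR-25-3p, AUUGCAC, showed the mirror image. It has 6 entries, of which 5 are 3p arms, and on the deposited scale 0 of these 5 passed in homozygous or in hemizygous cells (0 with an unadjusted p under 0.05), with differences of -0.01 to 0.67 and -0.86 to -0.12. miR-25-3p itself passed as higher under other scalings, as given above, and the values of the other 4 under those scalings are not given here. The 1 entry on a 5p arm, miR-32-5p, fell in both, with -2.73 ± 0.91 in homozygous (limma adjusted p = 0.0108) and -3.76 ± 0.91 in hemizygous cells (adjusted p = 0.00023). The sum was 326442 ± 22899 RPM in homozygous cells, 223613 ± 171831 in hemizygous cells and 22527 ± 11879 in Dicer-null cells, against 253834 ± 41411 RPM in wild-type cells, and miR-367-3p of the miR-302 cluster held most of it. miR-25-3p made up 5.54% and 5.62% of the sum in homozygous libraries, 7.09% and 6.08% in hemizygous libraries and 3.67% and 2.48% in Dicer-null libraries, against 5.86% and 4.82% in wild-type libraries. Each S1344L library had less of the seed AAAGUGC than both wild-type libraries on either scale, while for AUUGCAC as deposited the homozygous libraries lie above the wild-type ones and the hemizygous pair spans them. Scaled to own miRNA reads, AUUGCAC came to 141742 ± 678 RPM in homozygous cells, 141276 ± 1642 in hemizygous cells and 144200 ± 34798 in Dicer-null cells, against 114480 ± 9785 in wild-type cells, so that both hemizygous libraries also lie above both wild-type ones and the Dicer-null mean is no longer below. The smallest exact permutation p that 2 libraries against 2 allow is 0.333. The sum of AAAGUGC gave it for every group against wild type on both scales. That of AUUGCAC did not reach it in hemizygous cells as deposited, nor in Dicer-null cells on own miRNA reads (exact permutation p = 0.667).

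Across the 8 libraries, the profiles nearest to miR-106b-5p were miR-520d-5p, miR-188-5p and miR-140-5p, with root mean square differences of 0.15, 0.20 and 0.21 on the log2 scale among 492 candidates with at least 50 RPM in a group. Nearest to miR-93-5p were miR-32-5p (0.16), miR-500b-5p (0.18) and miR-204-5p (0.27), and miR-106b-5p was at rank 14 with 0.37. For miR-25-3p they were miR-19b-3p (0.13), miR-193b-3p (0.13) and miR-195-5p (0.14). Among the other members, the nearest to miR-25-3p was miR-106b-3p at rank 130. The other arm of the same hairpin lay at rank 211 for miR-106b-5p, 447 for miR-93-5p and 380 for miR-25-3p. These ranks describe likeness over libraries that share their depth and scaling, and no more.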

How the data were processed

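Total RNA from H1 cells was linker-ligated, size-selected, amplified and sequenced, per the labels' protocols, and cutadapt, limma and the hg38 build are named in the submitters' processing notes. How reads were aligned, counted and scaled is not given in the sources used here. Values in the deposited table are log2 RPM with 0.5 of a read added, as read from the values, and not the plain RPM that had been planned for. RPM is 2 to the power of the deposited value, and whole reads came back within 9.05e-09. Differences were tested with limma 3.58.1 (R 4.3.3) on log2(RPM + 1) over all 594 miRNAs and 8 libraries (group means, variance trend, two-sided, Benjamini-Hochberg adjusted p under 0.05, filter of 5 RPM in 2 libraries, passed by all). limma's prior came out infinite, which gives miRNAs of equal level the same spread. Arm ratios of 186 hairpins were tested likewise. On simulated data with known changes the fit was checked, but these held no library-wide shift like that of hemizygous replicate 1. Shares and sums used exact permutation tests. The named miRNAs are the 6 members, same-seed arms and the 3 nearest profiles. Members, lists and alternatives (pseudocount, filter, scaling, fit, replicate block, leaving out each library) were chosen with earlier results of these data known. The limma p-values rest on the spread between libraries of the same line, pooled over all 4 groups. The hemizygous pair therefore weighs also on comparisons it is not part of. Spread between independent lines of a genotype is not measured.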

Additional observations from a re-analysis of the deposited data

How the results depend on the processing

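Scaling and single libraries moved results most. Arm ratios moved least, in part by construction, since the 3 other scalings cancel from them apart from the pseudocount. Of 180 ratio values under settings that keep all libraries, 178 kept their sign and their side of the threshold, and 2 newly passed. Without 1 library, 136 ratio values stayed the same, 5 lost their call and 3 changed sign. In null against wild-type cells 2 hairpins passed instead of 1 with a pseudocount of 5 RPM and with the replicate block. The replicate block also put miR-93-3p in hemizygous against wild-type cells past the threshold (limma adjusted p = 0.0475), as the 3 other scalings did (2.73, 3.32 and 3.83). The replicate numbers are not known to pair libraries, and same-numbered libraries deviated together at correlations of -0.11 to 0.62. Arms called in homozygous against wild-type cells numbered 3 as reported, 5 with median-ratio scaling and with only the 4 libraries compared, and 0 to 4 without 1 library. They numbered 5 in hemizygous against wild-type cells with own-read scaling (to the library's own miRNA reads), 3 in null against wild-type cells with upper-quartile scaling, and 5, 6 and 6 in hemizygous against null cells with own-read, median-ratio and upper-quartile scaling. Without 1 library they numbered 0 to 5 in hemizygous against homozygous cells, 3 to 5 in homozygous against null cells and 3 to 5 in hemizygous against null cells. Log2 fold changes that turned round are given with own-read, median-ratio and upper-quartile scaling in that order. In homozygous against null cells they were -1.61, -1.74 and -1.74 for miR-106b-5p, -1.31, -1.44 and -1.44 for miR-93-5p, and -3.09, -3.23 and -3.23 for miR-25-5p. In hemizygous against null cells they were -1.77, -1.80 and -1.77, then -1.58, -1.61 and -1.58, then -2.81, -2.85 and -2.82 for the same arms. In null against wild-type cells they were 0.37, 0.98 and 1.47 for miR-93-3p, 1.05, 1.65 and 2.13 for miR-25-5p, and 0.11 and 0.60 for miR-25-3p with the last 2 scalings. In hemizygous against wild-type cells miR-25-3p had 0.61, 1.20 and 1.71, and miR-106b-3p 0.11 with upper-quartile scaling, with 0.0089 and 0.50 for miR-106b-3p in homozygous cells with the last 2 scalings. In hemizygous against homozygous cells they were 0.28, 0.38 and 0.41 for miR-25-5p and 0.23, 0.34 and 0.36 for miR-25-3p. Without 1 library, miR-25-3p in hemizygous against wild-type cells ranged from -0.89 to 0.65. In hemizygous against homozygous cells miR-106b-5p ranged from -2.35 to 0.44, miR-93-5p from -2.34 to 0.20, miR-25-5p from -1.79 to 0.88 and miR-25-3p from -1.33 to 0.21, and the ratios of miR-106b from -0.80 to 0.082, miR-93 from -0.41 to 0.23 and miR-25 from -0.67 to 0.47. miR-25-5p ranged from -1.04 to 1.63 in hemizygous and from -0.32 to 1.82 in homozygous against null cells. Without the 5 most abundant miRNAs the cluster's share of reads differed by -1.29 points in homozygous and -1.996 in null against wild-type cells. With the major arm of each hairpin alone, the share of miR-93 differed by -22.5 and -25.0 points and that of miR-25 by 55.8 and 59.4 points in homozygous and hemizygous against wild-type cells. With own-read scaling the log2 ratio of seed sums in null against wild-type cells was -0.83 for miR-106b-5p, 0.48 for miR-93-3p and 0.33 for miR-25-3p. The cause was not tested. Depth limits miR-25-5p and the Dicer-null libraries most.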
